A study of Homo sapiens with 40 samples.

Results

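The mRNAs described here encode the enzymes and cofactors that make microRNAs (miRNAs): DROSHA, DGCR8, XPO5, DICER1, TARBP2 and PRKRA. They were chosen by symbol, as Drosha, Dicer and their cofactors, and are 6 of the 55765 gene symbols in each count table. All 6 were found and all 6 passed the filter on low counts in every comparison. The data were RNA-Seq counts from 40 libraries of HEK293 cells, a human embryonic kidney line, in 12 groups and 3 experiments. In the RNA immunoprecipitation experiment (RIP-Seq), cells given no siRNA yielded total RNA and RNA bound to endogenous eIF4A1, eIF4A2 or DDX6, with 3 libraries in each of the 4 groups. In the sucrose gradient experiment, cells received a control siRNA or an siRNA against CNOT1, and input RNA, subpolysomal RNA (fractions 1 to 5) and polysomal RNA (fractions 6 to 11) were sequenced, with 4 libraries in each of the 6 groups. In the third experiment, total RNA came from cells that received a control siRNA or siRNAs against both TNRC6A and TNRC6B, with 2 libraries in each group. eIF4A1 and eIF4A2 are DEAD-box helicases of translation initiation, DDX6 is a DEAD-box helicase of mRNA repression and decay, CNOT1 is the scaffold of the Ccr4-Not deadenylase complex, and TNRC6A and TNRC6B, of the GW182 family, bridge Argonaute and that complex.

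A primary miRNA transcript is cut in the nucleus by the Microprocessor, in which DROSHA is the RNase III enzyme and DGCR8 the RNA-binding partner. XPO5 (exportin-5) carries the resulting hairpin to the cytoplasm, where the RNase III enzyme DICER1 cuts it to a duplex with the help of its double-stranded RNA-binding partners TARBP2 (TRBP) and PRKRA (PACT). The mature strand is then loaded into Argonaute, so these mRNAs stand upstream of the silencing machinery that GW182 proteins and Ccr4-Not complete.

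Libraries held 15353317 to 46018900 counted reads, and the lowest depths were in the gradient fractions and the TNRC6 experiment. The targeted genes were examined first. CNOT1 stood at 628 to 711 CPM (read counts scaled to a common library size) in control input and at 36.8 to 41.4 CPM in CNOT1 siRNA input, and TNRC6A and TNRC6B were at 178 to 189 and 67.6 to 73.1 CPM in control cells against 40.5 to 64.7 and 17.7 to 26.3 CPM after their siRNAs. In the polysomal fraction, CNOT1 was at 28.3 CPM in the library labelled control siRNA polysomal replicate 3 (469.9 to 501 in the other control libraries) and at 631 CPM in the one labelled CNOT1 siRNA polysomal replicate 3 (24.01 to 31.7 in the others). Both went against their labels, so the polysomal tests of the 6 mRNAs are given with and without them. The HEK293 genes NEFL, NEFM, EYA1 and INA were present in every library, PAX2 was at or below 1.57 CPM, and of the markers of other cell types ALB, PTPRC and HBB were at or below 0.40 CPM and COL1A1 at 1.14 to 18.1 CPM.

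CPM values were scaled by TMM factors within each experiment, so levels are compared only within an experiment. Per kilobase of exon, XPO5 had the highest level of the 6 mRNAs in total or input RNA of all 3 experiments, at 33.1 ± 2.98 CPM per kb in RIP total RNA (SD, n = 3) and 38.2 ± 2.84 in control input (SD, n = 4), followed by DROSHA at 27.4 ± 0.78 and 30.3 ± 1.72 CPM per kb. DGCR8 stood at 20.5 ± 0.28 and 15.4 ± 0.78, DICER1 at 10.3 ± 1.14 and 14.1 ± 0.19, TARBP2 at 12.1 ± 2.41 and 8.39 ± 0.66, and PRKRA at 3.63 ± 0.21 and 3.48 ± 0.30 CPM per kb. These lengths were the union of all annotated exons, and the order of the 4 genes below XPO5 and DROSHA depended on that choice. Per kilobase of the single MANE Select transcript, PRKRA stood at 24.7 CPM per kb in RIP total RNA and DICER1, at 21.98, was the lowest, while XPO5 and DROSHA were again the highest.

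The genes lie on different chromosomes. On GRCh37, with GENCODE annotation, DROSHA is at chr5:31400601-31532303 on the minus strand, DGCR8 at chr22:20067744-20099400 on the plus strand and XPO5 at chr6:43490072-43543775 on the minus strand. DICER1 is at chr14:95552565-95624347 on the minus strand, TARBP2 at chr12:53894705-53900215 on the plus strand and PRKRA at chr2:179296019-179316239 on the minus strand. Annotated exons of 5 of the 6 genes overlap exons of a gene on the opposite strand, by 1068 bases for PRKRA and CHROMR, 541 for TARBP2 and a lncRNA, 526 for DGCR8 and a lncRNA, 348 for XPO5 and POLR1C, 132 for PRKRA and PJVK, 80 for DICER1 and DICER1-AS1, and 3 for DGCR8 and TRMT2A. The library kit kept the strand, but whether counting used it is not given in the sources used here, so a part of these counts could belong to the partner. The miRNA genes MIR3618 and MIR1306 lie within exons of DGCR8, the first in its 5′UTR and the second in its coding region.

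The study this series belongs to is concerned with purine-rich motifs in the 5′UTR, so the purine tetramers in the last 50 bases of each 5′UTR are shown here. The search used AAGA or AGAA or GAAA or GAGA or AGAG or GGAA or AAAA or GAAG on the mRNA strand, leftmost first and without overlaps. XPO5, TARBP2 and PRKRA held none there, and their whole 5′UTRs of 174, 126 and 145 bases also held none. DICER1 held 4 (percentile 96.7 of 15536 genes), DROSHA 2 (percentile 77.6) and DGCR8 1 (percentile 53.3), against a median of 1. These are the sites, read from the GRCh37 genome along the MANE Select transcripts, 5′ to 3′, with the tetramers in capitals:
DICER1, chr14:95599806-95599833, minus strand: tgctAGAAcAAAAatgcaatGAAAgaaa
DICER1, chr14:95599802-95599813, minus strand: gaaaGAAAcact
DROSHA, chr5:31529189-31529200, minus strand: ctgtGGAAgatg
DROSHA, chr5:31529167-31529178, minus strand: aggcGGAAcatc
DGCR8, chr22:20073443-20073454, plus strand: ttgtAAAActct
The DICER1 sites lie from 34 to 11 bases before the start codon and overlap each other by their flanks. Over the whole 5′UTR, the density was 2.83 tetramers per 100 bases for DROSHA, 1.91 for DGCR8 and 1.74 for DICER1, against a median of 1.85 over all genes. In the 3′UTR, DGCR8 was low at 1.64 per 100 bases (percentile 10.8 of 18332).

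Because these mRNAs are themselves possible miRNA targets, their 3′UTRs were searched for matches to the seeds (bases 2 to 8) of 7 miRNAs. Of the mature sequences, 4 had a match in the 3′UTR of DICER1, TARBP2, XPO5 or PRKRA and are shown from RefSeq (GRCh38.p14) with the seed in capitals:
let-7a-5p: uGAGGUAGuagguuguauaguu
miR-103a-3p: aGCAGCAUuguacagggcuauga
miR-16-5p: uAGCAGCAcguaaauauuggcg
miR-19b-3p: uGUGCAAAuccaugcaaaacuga
The letters searched on the mRNA strand were CTACCTC for let-7a-5p, ATGCTGC for miR-103a-3p, TGCTGCT for miR-16-5p and TTTGCAC for miR-19b-3p, held by 1839, 2366, 4040 and 2555 of 18332 human 3′UTRs. The matches to miR-103a-3p and miR-16-5p share most of their letters, so 1 stretch can hold both. The 3′UTR of DICER1, 4270 bases long (percentile 89.9 of 3′UTR lengths), held 8 matches, 5 of them to miR-103a-3p, and the following lines show these 5 on the minus strand of chromosome 14 with the match in capitals:
DICER1, chr14:95555794-95555815: atcacacctaaaatATGCTGCa
DICER1, chr14:95555193-95555214: tgatgcttcgtggaATGCTGCa
DICER1, chr14:95553989-95554010: ccgcagtcctaactATGCTGCg
DICER1, chr14:95552718-95552739: atatttaccatcacATGCTGCa
DICER1, chr14:95552666-95552687: ttcatacagtaatcATGCTGCa
TARBP2 held 3 matches in a 3′UTR of 283 bases, of which the miR-103a-3p and miR-16-5p matches overlap, and the let-7a-5p match is shown because no other of the 6 mRNAs held one:
TARBP2, chr12:53900021-53900042, plus strand: tgtgggtgccatctCTACCTCt
XPO5 held 1 match, to miR-16-5p, and PRKRA 1, to miR-19b-3p. DROSHA and DGCR8 held none of the 7. The other 3 miRNAs searched were miR-17-5p (GCACTTT, in 21.9% of 3′UTRs), miR-92a-3p (GTGCAAT, in 11.5%) and miR-30a-5p (TGTTTAC, in 16.2%). A match is only a run of letters, and no small RNA was measured.

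**Figure D1:**
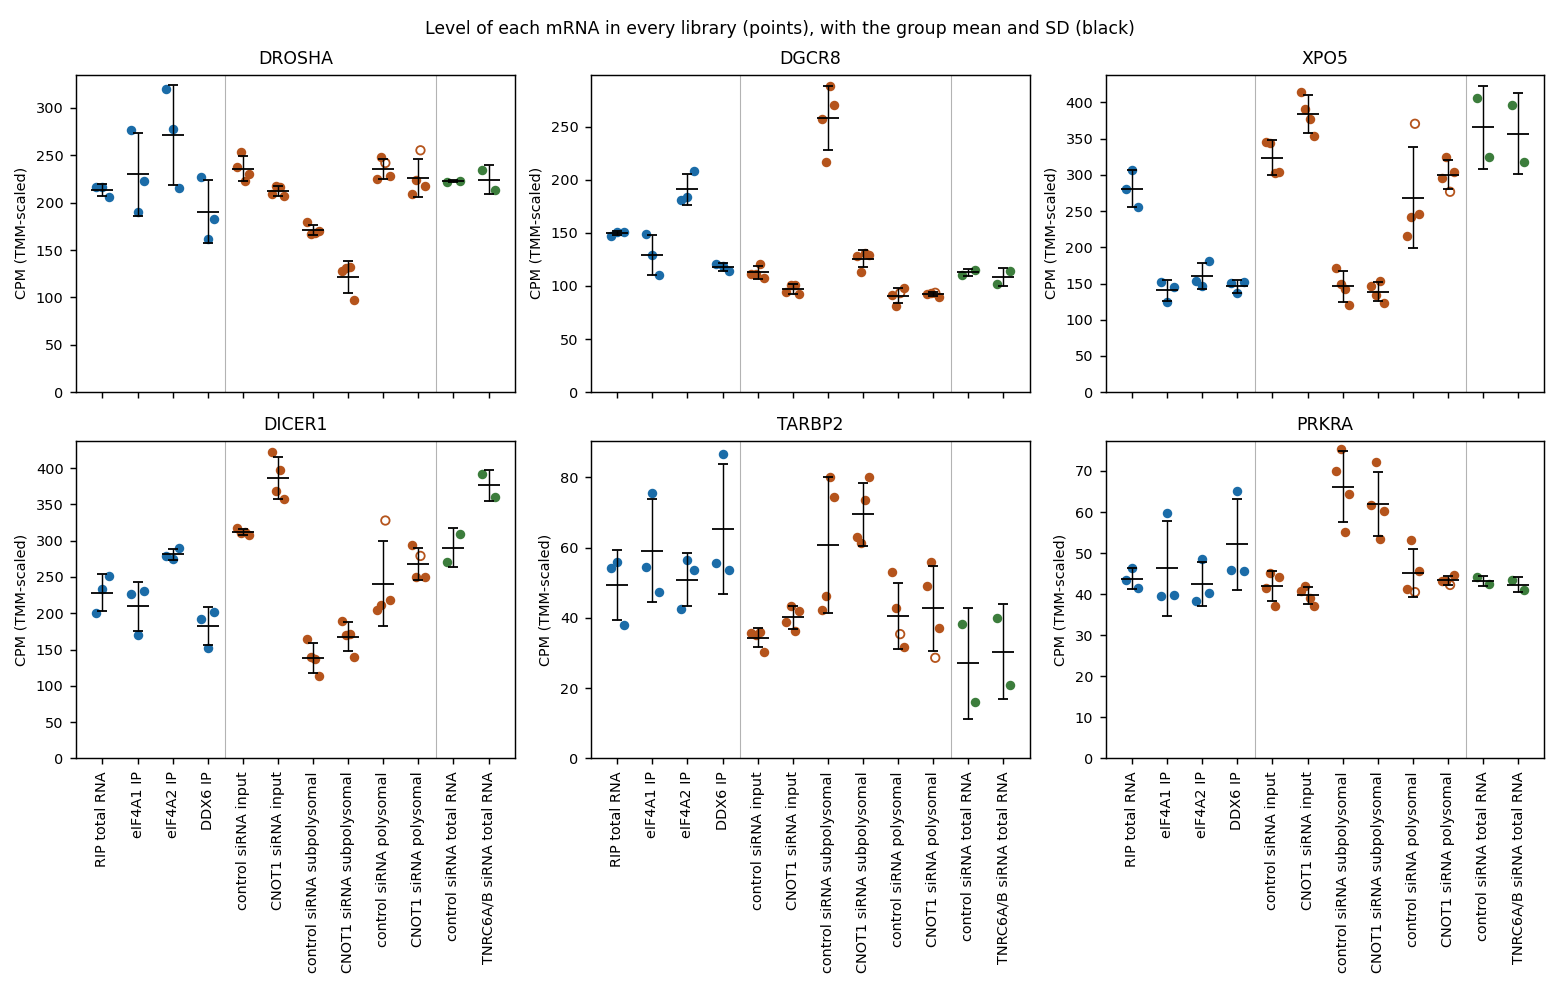
Each panel plots the level of 1 mRNA in CPM (linear axis from 0) in the 12 groups, with 1 point per library, blue for RIP-Seq, orange for the gradients and green for the TNRC6 experiment, and the group mean ± SD in black. Open circles are the 2 polysomal libraries of replicate 3 whose CNOT1 level went against their label. DGCR8 stands out in control subpolysomal RNA, where its 4 libraries lie between 217 and 289 CPM.

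The first question was whether these mRNAs were found with eIF4A1, eIF4A2 or DDX6 more or less than their level in total RNA would give. XPO5 was lower in all 3 immunoprecipitates (IPs) than in total RNA. DGCR8 was higher in the eIF4A2 IP and lower in the DDX6 IP, and the other 4 mRNAs did not pass the test. The series holds no library of an IP with a control antibody, so a difference from the background of an IP was not tested. The 3 comparisons share the same total RNA libraries. Of all 17474 genes tested, 52.6% were called in the eIF4A1 IP, 50.3% in the eIF4A2 IP and 46.0% in the DDX6 IP, at a false discovery rate (FDR) under 0.05 by edgeR's quasi-likelihood test, against 1, 2 and 2 of the 6 mRNAs. By direction, 26.1%, 24.5% and 22.7% of genes were higher and 26.5%, 25.8% and 23.3% lower.

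XPO5, the export receptor of the hairpin precursors, stood at 280, 307 and 256 CPM in RIP total RNA. It was at 152, 125 and 145 CPM in the eIF4A1 IP, 154, 147 and 181 in the eIF4A2 IP and 150.3, 136 and 152 in the DDX6 IP. Every IP library was below every total RNA library, and the 3 IPs overlapped one another. The log2 fold change was -0.998 (SE 0.14, edgeR FDR 5.8e-05) for eIF4A1, -0.81 (SE 0.14, FDR 0.00029) for eIF4A2 and -0.94 (SE 0.14, FDR 0.00014) for DDX6. Between IPs, XPO5 differed by 0.19, 0.13 and 0.06 on the log2 scale, none of which passed the test.

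DGCR8, the RNA-binding subunit of the Microprocessor, was at 148, 151 and 151 CPM in RIP total RNA. The eIF4A2 IP held 181, 184 and 208 CPM, all above the total RNA, and the DDX6 IP 121, 119 and 114 CPM, all below it. The eIF4A1 IP was more spread, at 149, 129 and 110.3 CPM, and overlapped the total RNA. The log2 fold change was 0.35 (SE 0.13, edgeR FDR 0.038) in the eIF4A2 IP, -0.35 (SE 0.13, FDR 0.043) in the DDX6 IP and -0.21 (SE 0.13, FDR 0.19) in the eIF4A1 IP. Both calls were near the threshold and were lost without the filter on low counts (FDR 0.163 and 0.269) and, for either IP, when any 1 of its 6 libraries was left out.

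DICER1 and DROSHA, the RNase III enzymes of the cytoplasmic and the nuclear step, were both highest on average in the eIF4A2 IP and lowest in the DDX6 IP. DICER1 stood at 201, 233 and 251 CPM in total RNA, 227, 171 and 231 in the eIF4A1 IP, 279, 275 and 290 in the eIF4A2 IP and 193, 152 and 202 in the DDX6 IP. All eIF4A2 IP libraries lay above the other 9 libraries of this experiment. Against total RNA its log2 fold changes of -0.12, 0.30 and -0.32 did not pass the test (edgeR FDR 0.53, 0.13 and 0.11). DROSHA was at 217, 217 and 206 CPM in total RNA and at 277, 189.8 and 223, then 320, 278 and 215, then 227, 162 and 183 CPM in the eIF4A1, eIF4A2 and DDX6 IPs, and all these groups overlapped total RNA. Its log2 fold changes were 0.11, 0.35 and -0.16 (FDR 0.64, 0.13 and 0.49).

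Because libraries with the same replicate number deviated together, the comparisons were also fitted with the replicate number as a block. With the replicate block, 4 of the 6 mRNAs passed in the eIF4A2 IP (DROSHA at 0.33, FDR 0.043, and DICER1 at 0.30, FDR 0.047, joined DGCR8 and XPO5). In the DDX6 IP, 4 passed as well, with DICER1 at -0.33 (FDR 0.032) and TARBP2 at 0.38 (FDR 0.039) added. The share of all genes called rose in parallel, to 64.5%, 62.4% and 60.0% for eIF4A1, eIF4A2 and DDX6.

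TARBP2 and PRKRA, the double-stranded RNA-binding partners of DICER1, were not called in any IP without the block. TARBP2 ranged from 38.0 to 55.8 CPM in total RNA, from 47.3 to 75.7 in the eIF4A1 IP, from 42.4 to 56.6 in the eIF4A2 IP and from 53.6 to 86.7 in the DDX6 IP. PRKRA ranged from 41.4 to 46.4, 39.5 to 59.7, 38.4 to 48.5 and 45.5 to 65.0 CPM in the same groups. All their groups overlapped, and replicate 2 was the highest of the 3 libraries in every group for both genes.

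The next question was whether an mRNA differed between the IPs themselves. DGCR8 and DICER1 were higher in the eIF4A2 IP than in the DDX6 IP, and no mRNA of the 6 was called between eIF4A2 and eIF4A1 or between DDX6 and eIF4A1. In eIF4A2 against DDX6, where 21.1% of all genes were called (9.82% higher and 11.3% lower), DGCR8 was higher by 0.70 (SE 0.13, edgeR FDR 0.0045) and DICER1 by 0.62 (SE 0.16, FDR 0.016) on the log2 scale, with no overlap of the libraries for either gene. The DICER1 call was lost without DDX6 IP replicate 2 (0.50, FDR 0.076), while DGCR8 was called in all 11 alternatives (FDR at most 0.022). DROSHA was higher by 0.51 (SE 0.18) and missed the threshold (FDR 0.065), but passed with the replicate block (FDR 0.0082) and with DESeq2. TARBP2 and PRKRA had values of the opposite sign, -0.36 (SE 0.23) and -0.30 (SE 0.19), and were not called.

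Between eIF4A2 and eIF4A1, edgeR called 0 of the 6 mRNAs and 1.06% of all genes (0.973% higher and 0.0858% lower). DGCR8 and DICER1 had an unadjusted edgeR p under 0.05, so 2 of the 6 did, as did 3116 of all 17474 genes. DESeq2 called 1, DGCR8, and 4.01% of all genes. DGCR8 was higher by 0.56 (SE 0.13, edgeR FDR 0.060) and DICER1 by 0.42 (SE 0.16, FDR 0.20), and for both every eIF4A2 library lay above every eIF4A1 library. With the replicate block both were called (FDR 0.0084 and 0.032), and 15.8% of all genes were. Between DDX6 and eIF4A1, edgeR and DESeq2 each called 0 of the 6, 0 had an unadjusted p under 0.05, and 0.0916% of all genes were called (0.0801% higher and 0.0114% lower).

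Set beside the printed sites, the 3 mRNAs with purine tetramers before the start codon had the 3 highest log2 differences between eIF4A2 and DDX6 (0.70, 0.62 and 0.51), and the 3 without any had 0.13, -0.36 and -0.30. Within the first 3 the order did not follow the count, since DICER1 held 4 tetramers and DGCR8 1. The 3 without any also had the shortest 5′UTRs, at 174, 126 and 145 bases against 353, 420 and 345 for DROSHA, DGCR8 and DICER1. This is a description of 6 genes with no test, and it was made after the values were seen.

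**Figure D2:**
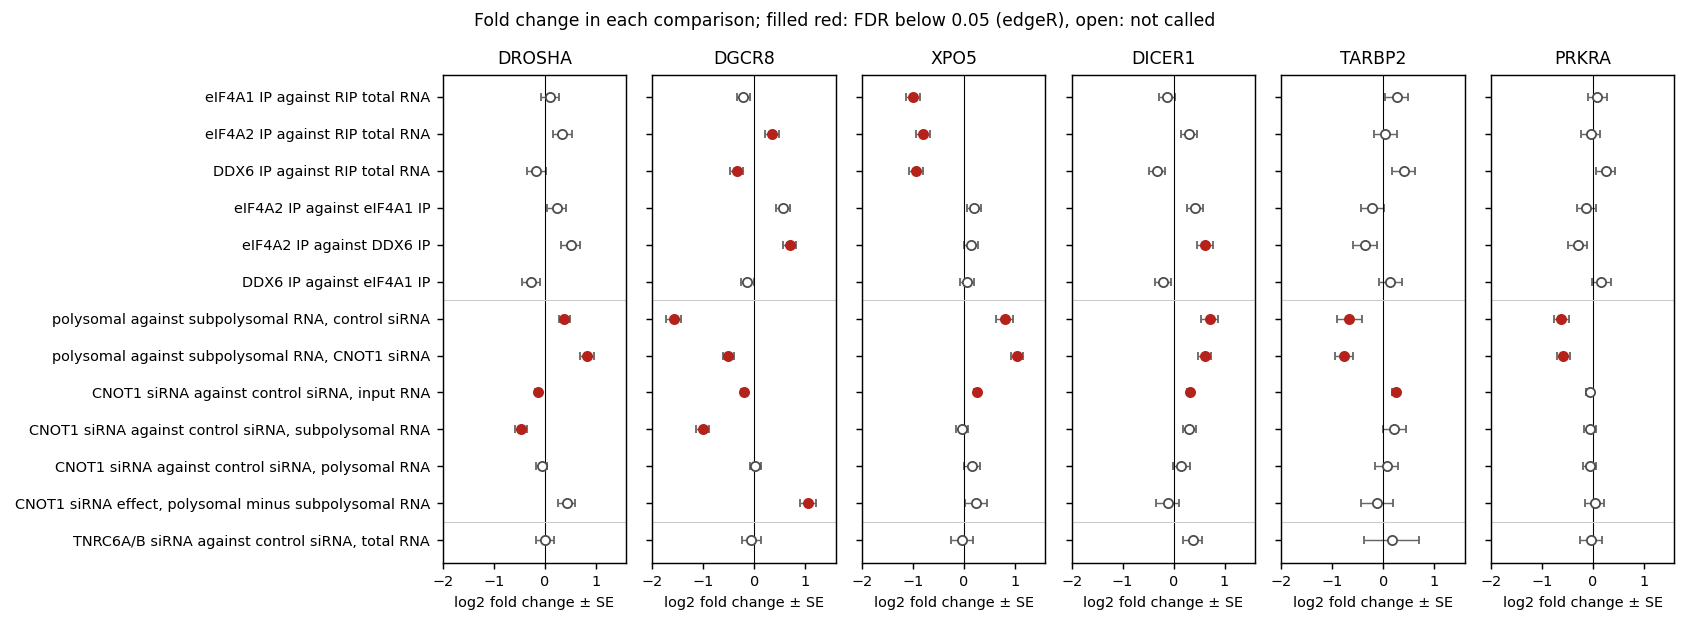
Log2 fold change with its SE (x axis) of each of the 6 mRNAs in the 13 comparisons (rows), with filled red points for an edgeR FDR under 0.05 and open points otherwise. XPO5 lies between -0.998 and -0.81 in all 3 IPs against total RNA, and DGCR8 runs from -1.58 for polysomal against subpolysomal RNA of control cells to 1.06 for the difference in CNOT1 siRNA effect between the fractions.

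The gradients asked whether each mRNA had a higher level in subpolysomal or in polysomal RNA. CPM are scaled to library size, so a level is a share among the mRNAs of that fraction. The part of an mRNA's molecules that lay in each fraction cannot be read from it. In control cells DICER1, XPO5 and DROSHA were higher in the polysomal and DGCR8, PRKRA and TARBP2 higher in the subpolysomal RNA. All 6 were called, where 65.1% of 15500 genes were (30.3% higher and 34.9% lower in polysomal RNA).

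DGCR8 had the most negative of the 6 values in control cells, though not after CNOT1 siRNA. Control subpolysomal RNA held 257, 217, 289 and 271 CPM, and control polysomal RNA 91.2, 81.2, 93.3 and 98.4 CPM, with no overlap. The log2 fold change was -1.58 (SE 0.15, edgeR FDR 4.7e-06), and -1.55 (SE 0.14, FDR 9.3e-06) without the 2 libraries that went against their labels. Subpolysomal DGCR8 was also above the input of the same cells, at 111, 111, 121 and 107.5 CPM.

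XPO5 was at 172, 149.7, 142 and 120.1 CPM in control subpolysomal RNA and at 216, 242, 371 and 246 CPM in control polysomal RNA. DICER1 was at 164, 139, 137 and 114 CPM and at 204, 211, 328 and 218 CPM, and DROSHA at 179, 167, 168 and 170.1 CPM and at 225, 248, 242 and 228 CPM. The polysomal groups of these 3 mRNAs lay wholly above the subpolysomal ones, and for XPO5 and DICER1 the highest value was that of the library labelled replicate 3. The log2 fold changes were 0.80 (SE 0.17, edgeR FDR 0.0016) for XPO5, 0.71 (SE 0.17, FDR 0.0027) for DICER1 and 0.39 (SE 0.11, FDR 0.010) for DROSHA. Without both doubtful libraries, where 67.8% of genes were called, they were 0.66, 0.58 and 0.42, all still called.

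PRKRA ranged from 55.1 to 75.3 CPM in subpolysomal and from 40.5 to 53.2 CPM in polysomal RNA of control cells, without overlap (-0.62, SE 0.15, edgeR FDR 0.0030, and -0.53, SE 0.13, FDR 0.0045, without both doubtful libraries). TARBP2 ranged from 42.3 to 80.1 CPM and from 31.6 to 52.9 CPM, and these groups overlapped. Its call (-0.66, SE 0.25, FDR 0.035) was lost without both doubtful libraries (-0.56, FDR 0.086). Of the doubtful libraries, only control polysomal replicate 3 is part of this comparison. The call was also lost without subpolysomal replicate 3 (-0.42) or 4 (-0.47) and without polysomal replicate 2 (-0.67) or 4 (-0.55).

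After CNOT1 siRNA, all 6 mRNAs were again called between the fractions in the same directions, where 66.4% of 15654 genes were (32.4% higher and 34.0% lower). XPO5 was higher in polysomal RNA by 1.05 (SE 0.11), DROSHA by 0.83 (SE 0.13) and DICER1 by 0.61 (SE 0.12) on the log2 scale, with edgeR FDR from 3.9e-06 to 0.00069. The values were -0.77 (SE 0.18) for TARBP2, -0.58 (SE 0.13) for PRKRA and -0.51 (SE 0.11) for DGCR8, with FDR from 0.00083 to 0.0023. The groups did not overlap for any of the 6, and the share of all genes without overlap is not given here. Without both doubtful libraries, where 70.7% of genes were called, the 6 values ran from -0.60 to 1.10 and all stayed called.

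**Figure D3:**
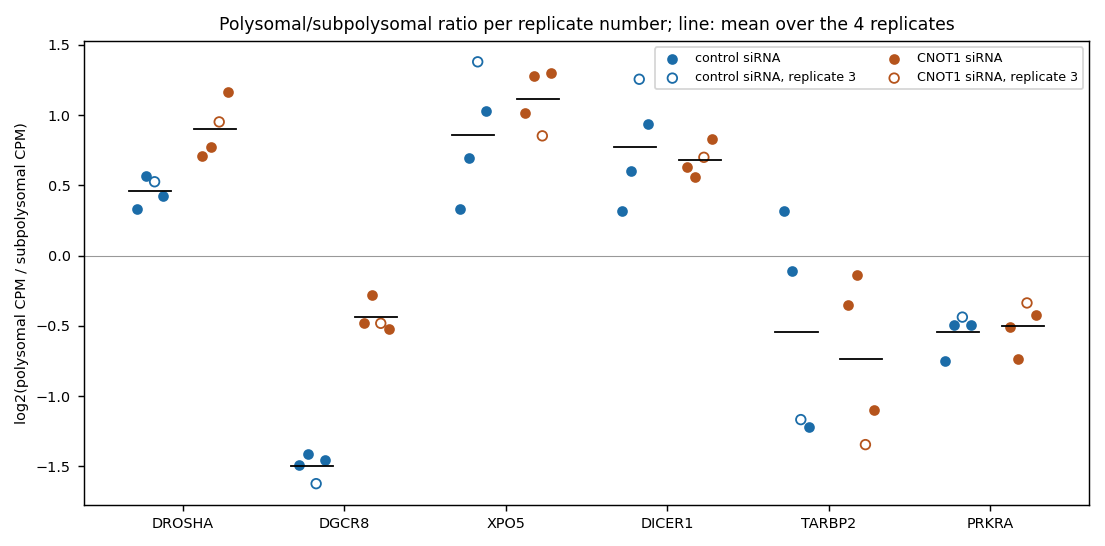
Log2 ratio of polysomal to subpolysomal CPM (y axis) for each of the 6 mRNAs, with 1 point per replicate number, blue for control siRNA and orange for CNOT1 siRNA, open circles for replicate 3 and a black line at the mean of 4. The DGCR8 ratios lie between -1.62 and -1.41 in control and between -0.52 and -0.28 after CNOT1 siRNA.

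Knockdown of CNOT1 was compared with control within each fraction. In input RNA, DICER1, XPO5 and TARBP2 rose and DGCR8 and DROSHA fell. In subpolysomal RNA, DGCR8 and DROSHA fell, the former by 1.01 on the log2 scale. In bulk RNA, fewer cells holding an mRNA and less of it per cell cannot be told apart.

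In input RNA, 61.0% of 15686 genes were called (30.9% higher and 30.0% lower), and 5 of the 6 mRNAs. DICER1 went from 318, 311, 312 and 308 CPM in control to 422, 368, 397 and 358 CPM (0.32, SE 0.06, edgeR FDR 0.00012). XPO5 went from 345, 344, 302 and 304 to 415, 391, 378 and 354 CPM (0.26, SE 0.06, FDR 0.0015). Every knockdown library was above every control library for both genes. TARBP2 went from 30.3 to 36.1 CPM in control to 36.2 to 43.4 CPM (0.24, SE 0.07, FDR 0.0079), where the groups only just failed to overlap. DGCR8 fell from 107.5 to 121 CPM to 92.2 to 101 CPM (-0.20, SE 0.05, FDR 0.0049). DROSHA fell from 222 to 254 CPM to 208 to 218 CPM (-0.13, SE 0.05, FDR 0.037), a call that 4 of 8 fits with 1 library left out lost. PRKRA, at 37.1 to 45.3 and 37.02 to 42.0 CPM, was not called (-0.07, SE 0.07). When all 24 gradient libraries were fitted together, 0 of the 5 calls remained (FDR from 0.070 to 0.39), with log2 values of those 5 from -0.22 to 0.31.

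In subpolysomal RNA, 27.8% of 15823 genes were called (12.6% higher and 15.2% lower). DGCR8 went from 257, 217, 289 and 271 CPM to 128, 114, 131 and 129 CPM, so that the highest knockdown library was far below the lowest control library (-1.01, SE 0.13, edgeR FDR 0.00081). It was called in all 13 alternatives (-1.05 to -0.90). DROSHA went from 179, 167, 168 and 170.1 CPM to 127, 131, 132 and 96.8 CPM (-0.46, SE 0.11, FDR 0.014), again without overlap. Its call was lost without control subpolysomal replicate 1 (FDR 0.055) and without the filter on low counts (FDR 0.057). With the replicate number as a block, 58.2% of genes were called, and DICER1 (0.31, FDR 0.00059) and TARBP2 (0.27, FDR 0.021) were called besides. XPO5 (-0.04, SE 0.12) and PRKRA (-0.06, SE 0.12) were not called in either fit.

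In polysomal RNA, edgeR called 0 of the 6 mRNAs and 0% of 14474 genes with all libraries, 0 of the 6 had an unadjusted p under 0.05, and DESeq2 called 0. Without the 2 libraries that went against their labels, 40.6% of genes were called. XPO5, then at 216, 242 and 246 CPM in control and 296, 325 and 304 CPM after CNOT1 siRNA, rose by 0.39 (SE 0.08, FDR 0.0045), and DICER1, at 204, 211 and 218 and at 294, 249.8 and 249.5 CPM, rose by 0.32 (SE 0.09, FDR 0.016). Neither gene's groups overlapped. DGCR8, at 81.2 to 98.4 CPM in control and 89.7 to 93.6 CPM after knockdown, differed by 0.02 with all libraries (SE 0.11, FDR 0.97) and by 0.02 without both doubtful ones (SE 0.09, FDR 0.90). DROSHA (-0.12), TARBP2 (0.15) and PRKRA (-0.10) were also not called without them, with FDR from 0.23 to 0.55.

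The difference between the CNOT1 siRNA effects in polysomal and subpolysomal RNA was tested directly. DGCR8 was the only mRNA of the 6 to pass (1.06, SE 0.16, edgeR FDR 0.0058), where 0.951% of 16506 genes did (0.576% higher and 0.376% lower), and it passed in all 23 alternatives (0.95 to 1.14). Per replicate number, the polysomal CPM of DGCR8 was 0.356, 0.375, 0.325 and 0.365 of its subpolysomal CPM in control, and 0.718, 0.825, 0.716 and 0.697 after CNOT1 siRNA. These are ratios of shares, not of amounts. The lowest knockdown ratio was above the highest control ratio. Without both doubtful libraries the value was 1.07 (SE 0.15, FDR 0.0016) and 9.44% of genes passed. Between siRNAs, the subpolysomal DGCR8 levels did not overlap and the polysomal levels did. DROSHA (0.43, SE 0.16, FDR 0.21) did not pass. XPO5, TARBP2, PRKRA and DICER1 had differences from -0.12 to 0.23 with FDR of 0.65 or more. These 5 also did not pass without both doubtful libraries, with DROSHA at 0.38 (SE 0.15, FDR 0.13), XPO5 at 0.47 (SE 0.17, FDR 0.094) and the other 3 from -0.04 to 0.05.

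No mRNA of the 6 was called after knockdown of TNRC6A and TNRC6B. In simulated data this fit recovered 2.08% of changes of 1 log2 unit and 47.4% of changes of 2. An mRNA that was not called is therefore not shown to be unchanged. edgeR called 0% of 14064 genes, neither TNRC6A nor TNRC6B among them, and 0 of the 6 mRNAs. Of the 6, 0 had an unadjusted p under 0.05, and DESeq2 called 0. DICER1 was at 271 and 309 CPM in control and at 392 and 361 CPM after the siRNAs (0.37, SE 0.18, FDR 1.00), so these libraries did not overlap. DGCR8 (111 and 115 against 102 and 115 CPM), DROSHA (222 and 223 against 235 and 214), XPO5 (407 and 325 against 396 and 318) and PRKRA (44.1 and 42.4 against 43.6 and 41.0) overlapped. TARBP2 was at 38.3 and 15.9 CPM in control and 39.9 and 20.9 CPM after the siRNAs, so the replicates differed more than the groups. With the replicate number as a block, edgeR called 5.43% of genes, among them TNRC6A (-1.84) and TNRC6B (-1.70), and again 0 of the 6 mRNAs. In that fit 1 of the 6 had an unadjusted p under 0.05, as did 2269 of 14064 genes. The lowest FDR of DICER1 in any of the 8 alternatives was 0.15.

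The other genes of the pathway were taken as 4 lists, 38 genes in all, of which 37 were tested in each comparison. In the IPs more of them were lower than higher, at 21 against 4 for eIF4A1, 16 against 4 for eIF4A2 and 20 against 3 for DDX6, where all genes were split as 26.5% against 26.1%, 25.8% against 24.5% and 23.3% against 22.7%. With the replicate number as a block the counts were 22 against 4, 21 against 4 and 23 against 5. All genes were then split as 32% against 32.4%, 31.9% against 30.4% and 30.4% against 29.6%. Of the 16 cofactors of the nuclear step, 0 were higher in the eIF4A1, eIF4A2 and DDX6 IPs (0, 0 and 2 with the block). In the same order, 12, 8 and 12 were lower (12, 11 and 12 with the block). Without the block, the medians of this list were -1.02, -0.82 and -0.85 against 0.04, 0.01 and 0.01 over all genes. The 6 mRNAs had medians of -0.02, 0.17 and -0.24. Of the 11 genes of the silencing complex, 1 was higher and 5 lower in each IP. Of the 8 tested precursor modifiers, 3, 3 and 2 were higher and 3, 2 and 2 lower, and of the 2 export genes 1 was lower in each.

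Among single genes, HSP90AA1, a chaperone used in Argonaute loading, was the lowest in all 3 IPs (-2.37, SE 0.19, -2.12, SE 0.18, and -1.77, SE 0.18, edgeR FDR at most 1.8e-05). HSP90AB1, its paralogue, followed for eIF4A1 (-1.63, SE 0.18) and eIF4A2 (-1.83, SE 0.18), and DDX17, a helicase that assists the Microprocessor, for DDX6 (-1.50, SE 0.26). AGO4, an Argonaute, was the highest in each (1.08, 1.22 and 0.83), followed by ZC3H12A, an RNase that cleaves miRNA precursors, for eIF4A1 (0.87) and DDX6 (0.81) and by ADARB1, an RNA-editing deaminase, for eIF4A2 (0.83). Between eIF4A2 and DDX6, 3 of the 37 were higher and 5 lower (9.82% and 11.3% of all genes). With the block, 8 were higher and 9 lower (18.5% and 22% of all genes). Those called without the block were led by METTL3, an m6A methyltransferase (0.98, SE 0.16, FDR 0.0026), and DDX17 (0.85, SE 0.26, FDR 0.033), and by ERH (-0.87, SE 0.26, FDR 0.033) and the cap-binding protein NCBP2 (-0.62, SE 0.16, FDR 0.017). Between eIF4A2 and eIF4A1 and between DDX6 and eIF4A1, edgeR called 0 of the 37, with 4 and 8 at an unadjusted p under 0.05. Of all 17474 genes, 3116 and 2438 had such a p. DESeq2 called 2 of the 37 in each, and 4.01% and 3.1% of all genes. With the block, 3 of the 37 were higher and 0 lower in each, where 15.8% and 9.90% of all genes were called. They were led by METTL3 (0.67, SE 0.14, FDR 0.0091) for eIF4A2 against eIF4A1 and by HSP90AA1 (0.59, SE 0.16, FDR 0.037) for DDX6 against eIF4A1.

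**Figure D4:**
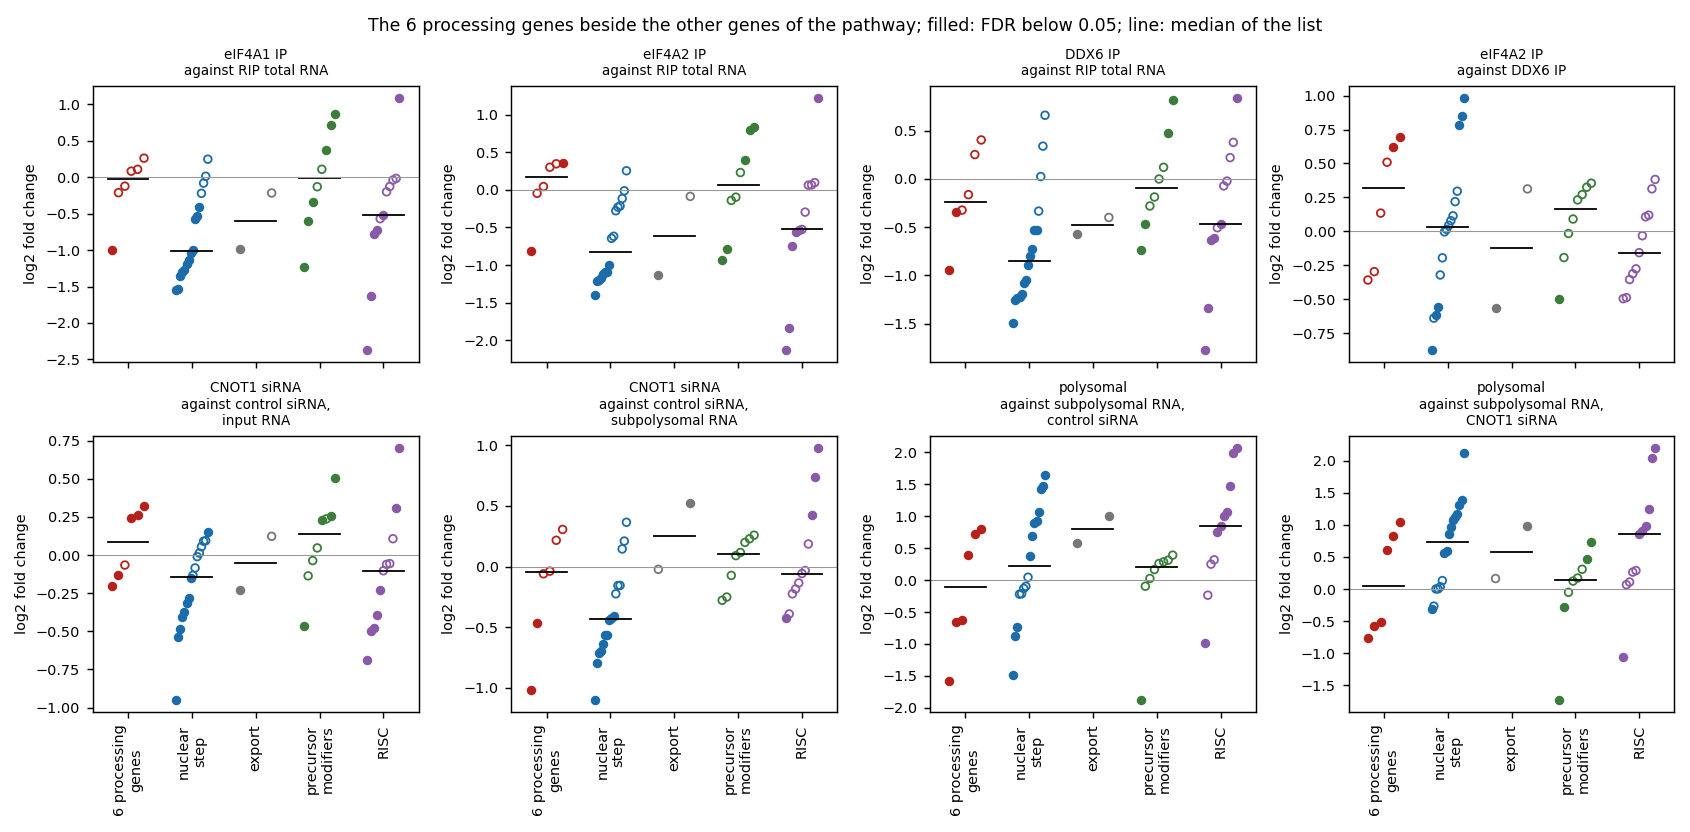
Log2 fold change (y axis, its own range in each panel) of the 6 processing mRNAs and of 4 lists of other pathway genes in 8 comparisons, with 1 point per gene, filled for an edgeR FDR under 0.05, and a black line at each list's median. The nuclear cofactors lie mostly below 0 in the 3 IPs (medians -1.02, -0.82 and -0.85), while the 6 processing mRNAs straddle 0.

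In the gradients, 17 of the 37 other pathway genes were higher and 5 lower in polysomal RNA in control cells, and 19 were higher and 4 lower after CNOT1 siRNA. Over all genes, 30.3% were higher and 34.9% lower in control cells, and 32.4% and 34.0% after CNOT1 siRNA. HSP90AB1 was the highest in both (2.06 and 2.20), followed by HSP90AA1 in control (1.99) and by HNRNPA2B1, an RNA-binding protein, after CNOT1 siRNA (2.12). ZC3H12A was the lowest in both (-1.87 and -1.72), followed by DDX17 in control (-1.48) and AGO4 after CNOT1 siRNA (-1.06). Without both doubtful libraries the same genes led, and the counts were 17 and 5, and 20 and 3.

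After CNOT1 siRNA, 6 of the 37 were higher and 15 lower in input RNA (30.9% and 30.0% of all genes). With the block, 8 were higher and 16 lower (33.4% and 32.9% of all genes). The genes called without the block were led by TNRC6A (0.70, SE 0.05) and the poly(A) polymerase TENT2 (0.51, SE 0.05) and by NCBP2 (-0.95, SE 0.06) and AGO4 (-0.69, SE 0.09). In subpolysomal RNA 4 were higher and 10 lower (12.6% and 15.2% of all genes), 9 of the 10 being nuclear cofactors. With the block 10 were higher and 16 lower (27% and 31.2% of all genes). Those called without the block were led by AGO2, the slicing Argonaute (0.98, SE 0.14), and TNRC6B (0.74, SE 0.12), and by DDX17 (-1.10, SE 0.16) and HNRNPA1 (-0.80, SE 0.13). The difference between fractions passed for 2, DDX17 (1.17, SE 0.21, edgeR FDR 0.019) and METTL3 (0.90, SE 0.20, FDR 0.038), where 0.576% of all genes were higher, and without both doubtful libraries 4 were higher and 1 lower (5.47% and 3.97% of all genes). In polysomal RNA 0 of 37 were called by edgeR or DESeq2 and 0 had an unadjusted p under 0.05. Without both doubtful libraries 6 were higher and 12 lower (21.8% and 18.9% of all genes), led by TNRC6A and TENT2 (0.78 and 0.53) and by NCBP2 and AGO4 (-1.04 and -0.79). After TNRC6A and TNRC6B siRNA, edgeR called 0 of 37, with 3 at an unadjusted p under 0.05, against 289 of all 14064 genes. DESeq2 called the 2 siRNA targets themselves, TNRC6A and TNRC6B, as lower.

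For each of the 6 mRNAs, the genes with the most similar profile were sought among 13981 genes by Pearson's r of the 12 group means of log2(CPM + 0.5), centred within each experiment. The nearest were TMEM178B (r = 0.989) and LMF1 (0.969) for DROSHA, CENPT (0.983) and ZNF555 (0.975) for DGCR8, and GLG1 (0.995) and BMS1 (0.993) for XPO5. For DICER1 they were TRAPPC11 (0.977) and PTPRD (0.970), for TARBP2 KCMF1 (0.986) and ADPRHL1 (0.977), and for PRKRA NT5C3B (0.980) and USMG5 (0.972). The nearest gene of each was the same without both doubtful libraries, and the second became ADAMTS15 (0.963) for DROSHA, ANKLE2 (0.970) for DGCR8 and DPH2 (0.970) for TARBP2. Among the 6 themselves, TARBP2 and PRKRA ran together (r = 0.90) and both ran opposite to DROSHA (-0.89 and -0.82), XPO5 (-0.87 and -0.87) and DICER1 (-0.77 and -0.95). DGCR8 had an r of -0.26 with DROSHA, its partner in the Microprocessor. These values were, without both doubtful libraries, 0.87 for TARBP2 and PRKRA, from -0.94 to -0.74 for the pairs that ran opposite, and -0.25 for DGCR8 and DROSHA. These are descriptions over 12 points, and all genes share the libraries behind each point.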

How the data were processed

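RNA-Seq libraries were made from TRIzol-extracted RNA of HEK293 cells with an Illumina TruSeq stranded kit. Per the submitters' processing notes, bcl2fastq 2.0, TopHat2, HTSeq and the genome build hg19 were used, and the authors deposited 1 table of raw read counts per gene symbol for each of the 40 libraries, without normalization. Aligner settings and the strand option are not given in the sources used here. A merged table of the authors' own comparisons of the IPs was not used.

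Samples were grouped by their labels. Counts were tested with edgeR 4.0.16 in R 4.3.3 (TMM normalization, filterByExpr, quasi-likelihood F-test, two-sided, Benjamini-Hochberg adjustment over all genes tested, FDR threshold 0.05). The 12 RIP libraries shared 1 fit, each gradient comparison was fitted on its own 8 libraries (16 for the difference between fractions), and the TNRC6 comparison on 4. CPM are read counts scaled to the TMM-adjusted library size. Overlap of groups is described for the 6 mRNAs only, without the share of all genes, so it does not show how unusual they are. No label says that replicates came from separate cultures, so p-values measure only the spread between these samples, which may be technical. Depth was 15353317 to 46018900 counts per library. The 6 mRNAs and the lists of other pathway genes were chosen with earlier results of these data known. Named were the 6 mRNAs, the siRNA targets, the pathway genes ranked first and second by size among those called in either direction of each comparison, and the 2 genes most similar to each of the 6.

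Whether replicate numbers pair the libraries was checked by the correlation of deviations from the group means. Every pair exceeded 0.1 in the RIP comparisons (r from 0.184 to 0.782), CNOT1 siRNA input (0.195 to 0.358) and subpolysomal RNA (0.586 to 0.736). In the TNRC6 comparison r was 0.862, where 2 libraries per group give only 1 independent value. Blocked values are therefore given where they change a call of the 6 mRNAs or the count for the other pathway genes, and for the TNRC6 comparison. The third RIP total RNA library is titled replicate 3 but described as replicate 2. The title was followed, and the pairing check and blocked values of the RIP libraries rest on it. No libraries were duplicates. Alternatives were RLE normalization, no filter, DESeq2 1.42.0, the replicate block, other sets of libraries in the fit and leaving out each library. The code was tested on simulated data, where 68.0% of changes of 1 log2 unit and 94.0% of changes of 2 log2 units were recovered for eIF4A2 IP against total RNA over 17189 genes, and 2.08% and 47.4% for the TNRC6 comparison over 13820 genes. Gene positions and sequences came from GENCODE annotation on GRCh37, and mature miRNAs from RefSeq.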

Additional observations from a re-analysis of the deposited data

Results flagged for a closer look

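Dixon's test was run on 36 sets of 4 libraries, each 1 of the 6 mRNAs in 1 group, and in 3 sets, from 2 groups, 1 library lay far from the others. Chance gives this in about 1 in 20 sets. DROSHA in CNOT1 siRNA subpolysomal replicate 4 was at 96.8 CPM, below the 127 to 132 CPM of the other 3 libraries. DGCR8 in CNOT1 siRNA subpolysomal replicate 2 was at 113.6 CPM, below the 128 to 131 CPM of the others. DICER1 in the library labelled control siRNA polysomal replicate 3 was at 327.8 CPM, above the 204 to 218 CPM of the others, and this is 1 of the 2 libraries whose CNOT1 level went against the label.

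The effect of CNOT1 siRNA on DGCR8 differed between polysomal and subpolysomal RNA by 1.06 on the log2 scale (SE 0.16, edgeR FDR 0.0058).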

How the results depend on the processing

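Of 1008 alternative values for single mRNAs, 897 kept their direction and side of the threshold, 35 lost and 20 gained a call, and 56 changed sign. None of those 56 was called in either fit. For each polysomal against subpolysomal comparison, the fit without both doubtful libraries is the same as that without its own polysomal replicate 3. Both are counted. The number of the 6 mRNAs called in the eIF4A2 IP against total RNA was 2, and 1 without the filter, 4 with the replicate block and 1 to 2 with 1 library left out. In the DDX6 IP it was 2, and 1 without the filter, 4 with the block and 1 with any library left out. Between eIF4A2 and eIF4A1 it was 0, and 1 with DESeq2, 2 with the block and 0 to 1 with 1 library left out. Between eIF4A2 and DDX6 it was 2, and 1 to 3 with 1 library left out. In CNOT1 siRNA input it was 5, and 0 in the fit of 24 libraries and 4 to 5 with 1 library left out. In subpolysomal RNA it was 2, and 1 without the filter and 4 with the block. In polysomal RNA it was 0, and 2 without both replicate 3 libraries, with or without the block. Between the fractions in control cells it was 6, and 5 with the block or in some fits with 1 library left out.

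Polysomal libraries with the same replicate number did not all deviate together (r from -0.562 to 0.185). The 2 doubtful libraries were part of this check and shift the group means, so it cannot show that pairing is absent. Without them, the block moved the genes called for CNOT1 siRNA in polysomal RNA from 5898 to 8455. With all libraries, the block called 5 of 6 between the fractions in control cells and 6 of 6 after CNOT1 siRNA. For CNOT1 against control siRNA in polysomal RNA it called 0 of 6. For TNRC6 siRNA, with 2 pairs, the block called 763 genes against 0 and none of the 6, and of the 37 other pathway genes AGO2 as higher (0.70, FDR 0.0017) and 3 as lower. Over all genes, the count moved from 185 to 700 with DESeq2 and 2766 with the block for eIF4A2 against eIF4A1, from 3685 to 7074 with the block for eIF4A2 against DDX6, from 16 to 541 and 1730 for DDX6 against eIF4A1, from 4394 to 9215 for CNOT1 siRNA subpolysomal RNA, from 157 to 578 with DESeq2 for the difference between fractions, and from 0 to 8 with DESeq2 for TNRC6 siRNA. With 1 library left out, it fell to 46 without eIF4A1 IP replicate 3 for eIF4A2 against eIF4A1 (58 without replicate 2, and 107 and 67 without eIF4A2 IP replicates 1 and 3). For eIF4A2 against DDX6 it fell to 1487 without DDX6 IP replicate 2 (1647 and 2401 without eIF4A2 IP replicates 1 and 3), and for DDX6 against eIF4A1 to 0 without eIF4A1 IP replicate 1 (2 without replicate 3, and 3 and 5 without DDX6 IP replicates 1 and 3). For the difference between fractions it was 658 without the library labelled control siRNA polysomal replicate 3, and 29 to 102 in 12 of the other 15 fits. In the other comparisons, leaving out 1 library moved it by less than 1.5 times. In the fit of 24 libraries it moved from 9561 to 4859 for CNOT1 siRNA input and from 157 to 949 for the difference between fractions. Without the filter it was 997 for eIF4A2 against eIF4A1, 232 for DDX6 against eIF4A1, 446 for the difference between fractions and 23 for TNRC6 siRNA. With only the compared libraries it was 24 for eIF4A2 against eIF4A1 and 0 for DDX6 against eIF4A1.

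Single log2 values that changed sign were PRKRA in the eIF4A2 IP (0.011 with only the compared libraries), XPO5 and PRKRA in subpolysomal RNA (0.024 and 0.0033 without the filter), DICER1 for the difference between fractions (0.038 with the block and without both libraries) and PRKRA there (-0.0066 with RLE, -0.090 without the filter, -0.0064 with DESeq2). For TNRC6 siRNA they were DGCR8 (0.0030 without the filter), XPO5 (0.0017 with RLE and DESeq2, 0.021 without the filter) and PRKRA (0.0031 with RLE and DESeq2, 0.025 without the filter). With libraries left out, the ranges across 0 in the eIF4A1 IP were -0.044 to 0.22 for DROSHA, -0.21 to 0.0014 for DICER1 and -0.15 to 0.19 for PRKRA, and in the eIF4A2 IP -0.12 to 0.16 for TARBP2 and -0.15 to 0.022 for PRKRA. For eIF4A2 against eIF4A1 they were -0.36 to 0.0048 for TARBP2 and -0.24 to 0.10 for PRKRA, and for DDX6 against eIF4A1 -0.12 to 0.39 and -0.021 to 0.43. In subpolysomal RNA they were -0.089 to 0.091 for XPO5 and -0.14 to 0.043 for PRKRA, and in polysomal RNA -0.057 to 0.050 for DGCR8, -0.086 to 0.19 for TARBP2 and -0.13 to 0.0050 for PRKRA. For the difference between fractions they were -0.21 to 0.070 for DICER1, -0.29 to 0.024 for TARBP2 and -0.058 to 0.12 for PRKRA. For TNRC6 siRNA they were -0.061 to 0.084 for DROSHA, -0.13 to 0.022 for DGCR8, -0.20 to 0.13 for XPO5, -0.38 to 0.92 for TARBP2 and -0.080 to 0.017 for PRKRA. The causes were not tested.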
